A study of Mus musculus with 16 samples.

Results

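The SMN complex genes are *Smn1* and the genes of the proteins that bind its product, *Gemin2*, *Ddx20* (Gemin3), *Gemin4*, *Gemin5*, *Gemin6*, *Gemin7*, *Gemin8* and *Strap* (Unrip). They were taken by symbol from the count table, which lists 46320 genes, and all 9 were found in it. The libraries held RNA from the somatodendritic and the axonal compartment of motoneurons from embryonic day 13 mice, either Hnrnpr-/- or +/+, with 4 libraries in each of the 4 groups. The Hnrnpr-/- mice carry a CRISPR/Cas9 deletion at the 5′ end of *Hnrnpr*, made in fertilized eggs, and were backcrossed to C57Bl/6. The +/+ motoneurons carry both wildtype alleles. Motoneurons were enriched from lumbar spinal cord with a p75NTR antibody and grown in microfluidic chambers, in which only axons are meant to reach the axonal side. All 4 groups received CNTF at 5 ng/ml on both sides and BDNF at 20 ng/ml on the axonal side alone. The question put to these groups was whether loss of hnRNP R, an RNA-binding protein of motoneurons, changes the level of transcripts in either compartment. The axonal RNA was reverse transcribed in full reaction volume and amplified with more PCR cycles than the somatodendritic RNA, so compartment and library preparation cannot be told apart.

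The SMN complex works in the cytoplasm, where it places a ring of Sm proteins around the spliceosomal small nuclear RNAs before these return to the nucleus. SMN and Gemin2 form its core and hold the Sm proteins, Gemin5 recognises the small nuclear RNA, Ddx20 is a DEAD-box helicase paired with Gemin4, and Gemin8 joins SMN to Gemin6, Gemin7 and Unrip. Loss of *SMN1* in humans causes spinal muscular atrophy, a motoneuron disease. SMN is also found in motor axons, where it associates with RNA-binding proteins, and hnRNP R is among its reported partners.

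The label of each library was checked on *Hnrnpr*, the gene with the deletion, which lay at 178 to 240 CPM (counts scaled to a common library total) in +/+ somatodendritic and 120 to 422 CPM in +/+ axonal libraries, against 0.544 to 1.16 CPM in Hnrnpr-/- somatodendritic and 0.596 to 1.10 CPM in Hnrnpr-/- axonal libraries. Total counts ranged from 22024923 to 34864151 per library. By these counts 1 library stood apart, +/+ axonal replicate 2, which had the fewest genes with a read at 22517 and the 422 CPM of *Hnrnpr*, against 120 to 164 CPM in the other 3 +/+ axonal libraries. Other libraries differed in chi-square per gene between 2 libraries of a group. Hnrnpr-/- somatodendritic replicate 1 was at 49.7 to 75.8 from its group, whose other libraries were at 17.8 to 26.1. The largest value was 393, between Hnrnpr-/- axonal replicates 1 and 3. Of 6 motoneuron genes, which summed to 11.5 to 28.4 CPM in +/+ somatodendritic and 0.974 to 15.7 CPM in +/+ axonal libraries, *Slc18a3* at 3.89 to 11.5, *Isl1* at 3.89 to 8.03, *Slc5a7* at 3.05 to 7.74 and *Chat* at 0.657 to 1.30 CPM were found in all +/+ somatodendritic libraries. *Isl2* lay at 0 to 0.207 CPM there, and *Mnx1* at 0 counts in every library of 3 groups. *Tubb3* of neurons lay at 1083 to 1495 CPM there and at 123 to 478 CPM in +/+ axonal libraries. Genes of other cell types were present on the axonal side, and 4 genes of pericytes or smooth muscle summed to 1041 to 9877 CPM in +/+ axonal against 25.2 to 378 CPM in +/+ somatodendritic libraries, mostly from *Acta2*.

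Where the member genes lie bears on how reads could be assigned to them, and 5 of them have annotated copies in the genome that match part or most of their coding sequence at 85% identity or more. Those of *Gemin2* and *Strap* had at most 1 count in any library. *Gm2324*, a short match to *Gemin8*, had 0, and the other copies of *Gemin6*, *Gemin8* and *Gemin4* reached higher counts. The start of the coding sequence is shown for *Gemin6*, from coding base 3 to 102, at chr17:80533071-80533170, and for its copies *Gemin6-ps* at chr6:117785683-117785782 and *Gm3678* at chr12:6548517-6548616, all on GRCm39, with capitals where a copy differs from the gene. *Gemin6* and *Gemin6-ps* are on the plus strand and *Gm3678* is on the minus strand.
Gemin6: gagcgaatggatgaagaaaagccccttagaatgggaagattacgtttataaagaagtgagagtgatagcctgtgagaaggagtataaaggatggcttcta
Gemin6-ps: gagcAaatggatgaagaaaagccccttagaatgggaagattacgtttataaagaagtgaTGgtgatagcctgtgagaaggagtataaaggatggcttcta
Gm3678: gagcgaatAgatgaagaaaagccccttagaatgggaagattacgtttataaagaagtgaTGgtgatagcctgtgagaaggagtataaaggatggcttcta

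*Gemin8* is shown in the same way from its first coding base, spliced across an intron between positions 164961824 and 164963445 of the plus strand of chromosome X, beside the pseudogene *Gm5455* on the minus strand at chr13:110441927-110442026.
Gemin8: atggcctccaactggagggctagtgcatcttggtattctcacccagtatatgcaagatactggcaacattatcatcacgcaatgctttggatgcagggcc
Gm5455: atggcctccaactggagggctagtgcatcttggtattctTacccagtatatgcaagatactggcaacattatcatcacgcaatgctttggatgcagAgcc

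Over these 100 bases, which is the read length, both copies of *Gemin6* differ from it at 3 positions and *Gm5455* differs from *Gemin8* at 2. Over the aligned coding sequence the identity was 97.4% for *Gemin6-ps*, 95.8% for *Gm3678*, 98.7% for *Gm5455* and 97.7% for *Gm6330*, a pseudogene on chromosome 15 that matches part of *Gemin4*. Of the windows of 100 bases, 2.3% were identical between *Gemin6* and *Gemin6-ps*, 5.9% between *Gemin8* and *Gm5455* and 14.1% between *Gemin4* and *Gm6330*. Reads with several alignments or genes were divided by the authors' counting. Fractional counts occurred in 14 of 16 libraries for *Gemin6*, 11 for *Gemin8*, 10 for *Gemin4*, 7 for *Gemin7*, 5 for *Strap*, 3 for *Gemin5*, 1 for *Ddx20* and 0 for *Smn1* and *Gemin2*. *Gm6330* held 8.5 to 72 counts per library and *Gm5455* 4.5 to 107.5. Adding the copies' counts to their members left every call of a member in every comparison as it was.

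The genes are spread over the genome as annotated by RefSeq on GRCm39. *Smn1* (gene ID 20595) lies on chromosome 13 from 100259713 to 100274206, *Gemin2* (66603) on chromosome 12 from 59060177 to 59075256, *Strap* (20901) on chromosome 6 from 137712080 to 137728928, *Gemin6* (67242) on chromosome 17 from 80514933 to 80535926 and *Gemin8* (237221) on chromosome X from 164953412 to 164973508, all on the plus strand. On the minus strand lie *Ddx20* (53975) on chromosome 3 from 105585586 to 105595104, *Gemin7* (69731) on chromosome 7 from 19298874 to 19307268, and *Gemin4* (276919) from 76101397 to 76108398 and *Gemin5* (216766) from 58010827 to 58059378 on chromosome 11. *Ttc39d* lies inside the *Gemin6* locus on the same strand and had at most 5 counts in any library. The coding sequences of the GENCODE transcripts run from 390 bases in *Gemin7* over 501 in *Gemin6*, 717 in *Gemin8*, 810 in *Gemin2*, 867 in *Smn1* and 1053 in *Strap* to 2478 in *Ddx20*, 3177 in *Gemin4* and 4512 in *Gemin5*.

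All 9 genes were detected in all 16 libraries, with the lowest count at 48.7 for *Gemin8* in a +/+ somatodendritic library and the highest at 9489 for *Strap* in an Hnrnpr-/- axonal library. To compare genes with each other, levels were divided by the exon length in the count table, giving RPKM (CPM per kilobase of exon). *Strap* and *Gemin7* stood above the others in every group. In +/+ somatodendritic libraries *Strap* had 74.7 ± 8.64 RPKM (SD, n = 4), *Gemin7* 47.3 ± 4.90 and *Ddx20* 12.5 ± 1.13, and the ranges of these neighbours did not overlap. The next 4, *Gemin4* at 9.11 ± 0.655, *Gemin5* at 8.46 ± 0.778, *Smn1* at 7.16 ± 2.01 and *Gemin6* at 7.14 ± 0.774 RPKM, overlapped with their neighbours and have no firm order. *Gemin2* at 4.32 ± 0.931 and *Gemin8* at 1.51 ± 0.424 RPKM were the lowest. The range of *Gemin2* overlapped with that of *Smn1* but not with that of *Gemin6*, and *Gemin8* lay apart from all others.

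On the axonal side of +/+ motoneurons *Gemin7* came first at 137 ± 29.2 RPKM (n = 4), apart from *Strap* at 81.6 ± 7.0 RPKM. *Gemin6* followed at 18.2 ± 6.81, then *Ddx20* at 12.8 ± 2.43, *Smn1* at 11.4 ± 3.02, *Gemin2* at 8.90 ± 2.25 and *Gemin4* at 8.51 ± 4.02 RPKM, with overlapping ranges from each gene to the next. *Gemin8* at 4.69 ± 0.941 and *Gemin5* at 4.58 ± 1.04 RPKM were lowest and overlapped. Hnrnpr-/- axons had the same leading pair, *Gemin7* at 132 ± 27.4 and *Strap* at 89.0 ± 13.9 RPKM, but here the ranges overlapped. The place of *Gemin7* rests on its length, which is 763 bases in the count table and 1447 in the GENCODE transcript. With GENCODE lengths *Gemin7* came to 72.4 ± 15.4 and *Strap* to 79.1 ± 6.78 RPKM in +/+ axons.

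**Figure D1:**
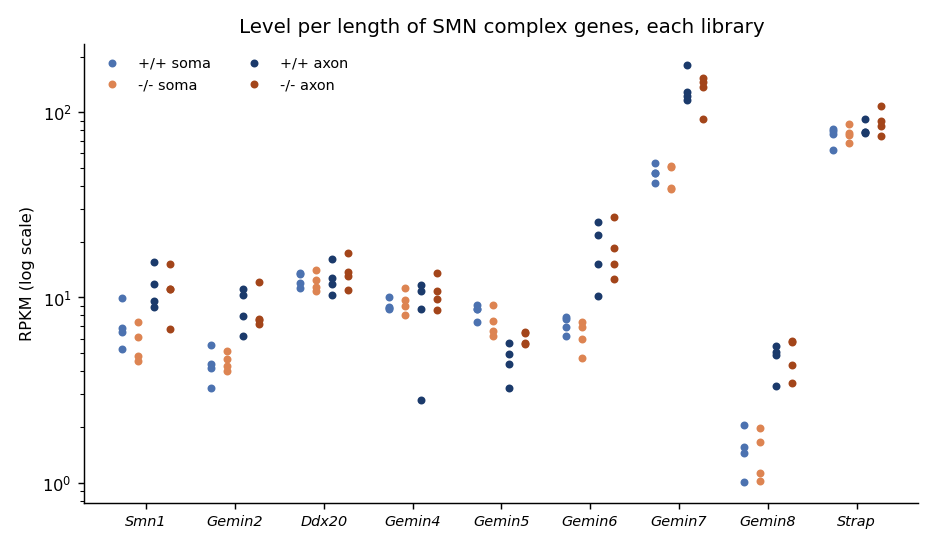
Level per length (RPKM, log axis) of each SMN complex gene in every library, with 4 points for each of the 4 groups. *Strap* and *Gemin7* lie above the other members in all libraries, and the *Gemin7* points of both axonal groups, from 92.0 to 180 RPKM, lie above its somatodendritic points, from 38.7 to 53.4 RPKM.

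Axonal and somatodendritic libraries were compared first within +/+ motoneurons. The levels of *Gemin8*, *Gemin7*, *Gemin6*, *Gemin2* and *Smn1* relative to the library were higher on the axonal side, that of *Gemin5* was lower, and *Ddx20*, *Gemin4* and *Strap* did not pass the test. In bulk libraries fewer cells of a type and less RNA per cell cannot be told apart, and each value is a share of its own library. At an adjusted p under 0.05 in the edgeR quasi-likelihood test, 6 of 9 members were called, against 57.5% of the 19964 genes tested. Higher in axons were 5 members, against 30.1% of all genes, and 1 was lower, against 27.4%. Both shares changed with coding length, as given below. The CPM ranges of the compartments did not overlap for 4 members with higher values in axons, against 24.8% of all genes tested, and for 1 with lower values, against 27.6%. The median log2 fold change was 0.68 over the members and 0.07 over all genes tested. With library totals in place of scaled totals these medians were 0.82 and 0.22, and the 6 members kept their direction.

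*Gemin8*, *Gemin7* and *Gemin6* had the largest differences of the members, and their order is not firm. *Gemin8* lay at 3.41, 2.20, 3.15 and 4.46 CPM in the +/+ somatodendritic libraries and at 10.7, 11.2, 11.9 and 7.27 CPM in the +/+ axonal ones. The lowest axonal library was above the highest somatodendritic one, and the log2 fold change was 1.63 (SE 0.29, adjusted p = 0.000349). With the counts of *Gm5455* added it was 1.73, and without +/+ axonal replicate 2 it was 1.59, below the value of *Gemin7* in that fit.

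*Gemin7*, which pairs with Gemin6 in a dimer that resembles a pair of Sm proteins, lay at 40.8, 36.0, 36.0 and 31.6 CPM in +/+ somatodendritic and at 98.6, 89.3, 138 and 93.6 CPM in +/+ axonal libraries. The ranges did not overlap, and the log2 fold change was 1.54 (SE 0.19, adjusted p = 3.85e-05). *Gemin6* lay at 8.53, 9.58, 10.9 and 10.6 CPM against 21.1, 30.1, 35.4 and 14.1 CPM. Its axonal libraries spread more than its somatodendritic ones but all lay above them, with a log2 fold change of 1.35 (SE 0.29, adjusted p = 0.00126).

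*Gemin2*, whose product clasps the Sm proteins beside SMN, lay at 6.60, 5.17, 6.91 and 8.77 CPM in +/+ somatodendritic and at 12.7, 17.6, 16.5 and 9.81 CPM in +/+ axonal libraries, again without overlap. Its log2 fold change was 1.04 (SE 0.24, adjusted p = 0.00204). *Smn1* lay at 10.6, 10.1, 8.11 and 15.4 CPM against 14.8, 18.3, 24.0 and 13.7 CPM. Here the groups overlapped, since somatodendritic replicate 4 was above axonal replicates 1 and 4, and the log2 fold change was 0.68 (SE 0.28, adjusted p = 0.0469). This call is at the edge of the threshold: 14 of the 29 alternative fits lost it, with adjusted p from 0.0159 to 0.123 over all 29. Leaving out +/+ axonal replicate 3 gave the highest of these p and a log2 fold change of 0.54. Without +/+ axonal replicate 2 it was 0.66 (adjusted p = 0.0735).

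*Gemin5*, the subunit that reads the small nuclear RNA, went the other way. It lay at 54.1, 56.8, 45.7 and 54.3 CPM in +/+ somatodendritic and at 35.6, 20.2, 27.2 and 31.0 CPM in +/+ axonal libraries. All axonal libraries were below all somatodendritic ones, and the log2 fold change was −0.89 (SE 0.17, adjusted p = 0.000751). Without +/+ axonal replicate 2, the lowest of the 4, it was −0.76 (adjusted p = 0.00145).

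The helicase gene *Ddx20* lay at 34.1 to 41.1 CPM in +/+ somatodendritic and 31.4 to 48.9 CPM in +/+ axonal libraries, and its log2 fold change was 0.03 (95% confidence interval −0.33 to 0.39). *Strap*, whose product also acts in translation and in TGF-beta receptor signalling, lay at 164 to 216 and 204 to 243 CPM, and its value was 0.13 (−0.17 to 0.43). *Gemin4* lay at 30.1 to 34.8 CPM in +/+ somatodendritic libraries and at 37.6, 9.62, 29.9 and 40.3 CPM in +/+ axonal ones. The wide interval of its log2 fold change, −0.10 (−0.76 to 0.56), came with the 9.62 CPM of +/+ axonal replicate 2, and without that library it was 0.19 (−0.18 to 0.56).

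**Figure D2:**
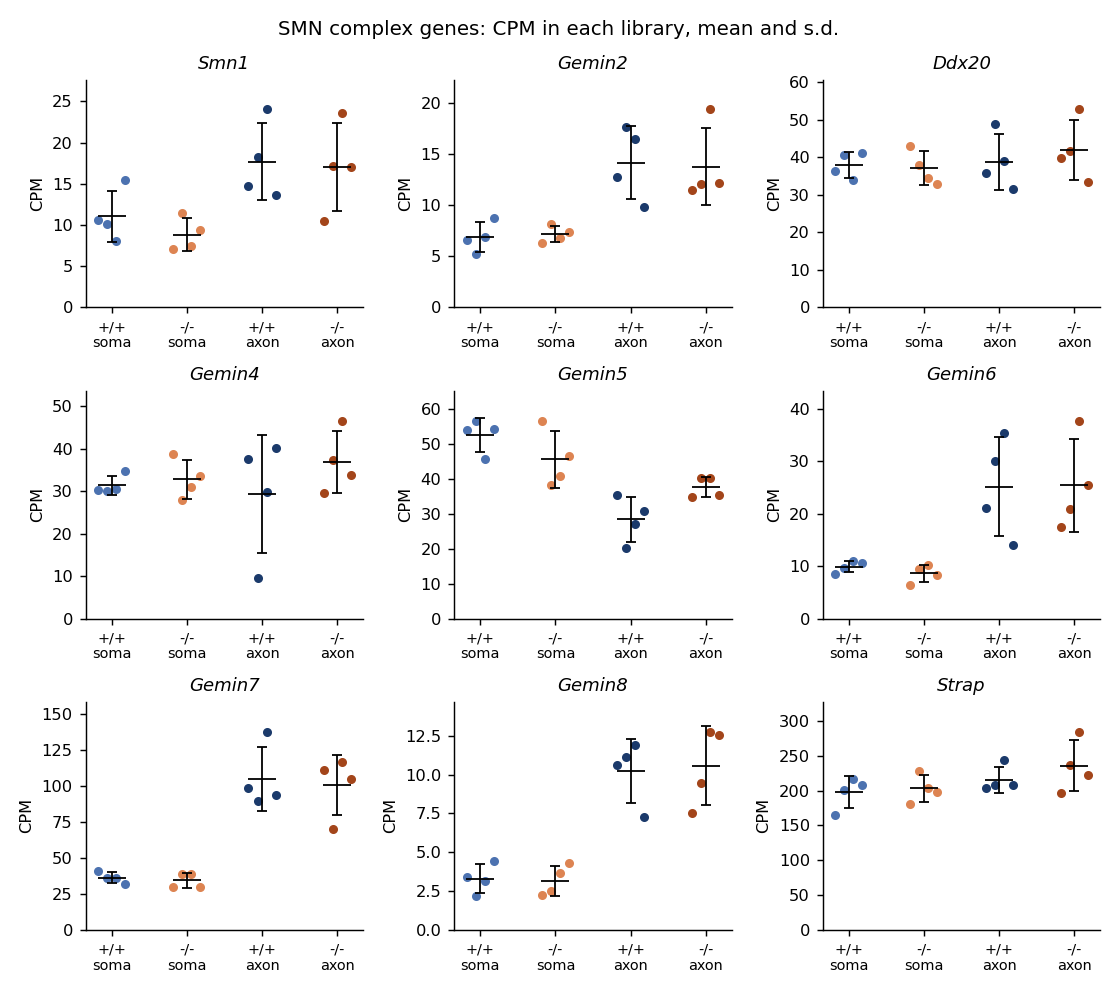
CPM of each member in every library, with points for libraries and bars for the mean and SD of 4 libraries, in +/+ and Hnrnpr-/- somatodendritic (soma) and axonal (axon) groups. For *Gemin2*, *Gemin6*, *Gemin7* and *Gemin8* all axonal points lie above all somatodendritic points of the same genotype, as for 19.1% of all genes tested, and the low axonal point of *Gemin4* is +/+ axonal replicate 2.

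The Hnrnpr-/- libraries give the same comparison in separate libraries. Of the 9 members 5 were called, against 54.2% of all 19964 genes, and all 5 were higher in axons, against 27.5% of all genes, while 0 were lower, against 26.8%. The median log2 fold change was 0.94 over the members and −0.00 over all genes tested. The called members were *Gemin8*, *Gemin7*, *Gemin6*, *Smn1* and *Gemin2*, which are those called higher in +/+ motoneurons.

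*Gemin8* lay at 2.22, 2.47, 3.64 and 4.29 CPM in Hnrnpr-/- somatodendritic and at 7.55, 9.47, 12.8 and 12.6 CPM in Hnrnpr-/- axonal libraries, with a log2 fold change of 1.75 (SE 0.29, adjusted p = 0.000276). *Gemin7* lay at 29.5 to 39.0 and 70.2 to 117 CPM and *Gemin6* at 6.50 to 10.2 and 17.5 to 37.8 CPM, and both had a log2 fold change of 1.56. *Gemin2* lay at 6.34 to 8.18 and 11.5 to 19.3 CPM, a difference of 0.94 on the log2 scale (SE 0.24, adjusted p = 0.00439). In these 4 genes the compartments did not overlap, with all axonal values higher, as in 24.0% of all genes tested. No member had all axonal values lower, against 27.3% of all genes. The same 4 lacked overlap in both genotypes, which 19.1% of all genes did with higher axonal values.

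*Smn1* lay at 7.04, 11.4, 7.45 and 9.43 CPM in Hnrnpr-/- somatodendritic and at 10.5, 17.1, 23.5 and 17.1 CPM in Hnrnpr-/- axonal libraries. The lowest axonal library was below the highest somatodendritic one, and the log2 fold change was 0.95 (SE 0.28, adjusted p = 0.00986). This call held in all 29 alternative fits, with adjusted p up to 0.0323. *Gemin5* lay at 56.7, 38.4, 40.9 and 46.6 CPM against 35.0, 40.3, 40.2 and 35.3 CPM, with overlap, and its log2 fold change of −0.28 (95% confidence interval −0.65 to 0.09) did not pass (adjusted p = 0.192). *Ddx20*, *Gemin4* and *Strap* had log2 fold changes of 0.18, 0.17 and 0.21, with adjusted p of 0.391, 0.666 and 0.214.

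**Figure D3:**
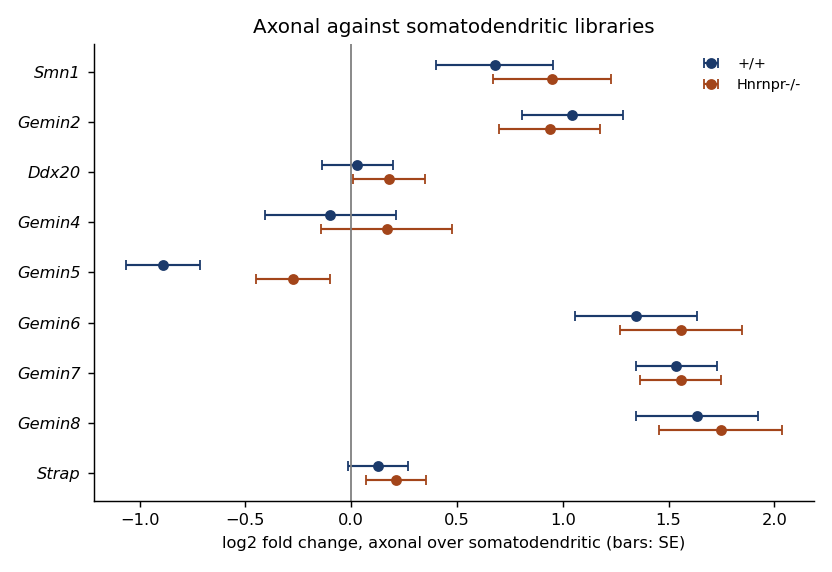
Log2 fold change of axonal over somatodendritic libraries for each member in +/+ and Hnrnpr-/- motoneurons, with bars for the standard error. *Gemin6*, *Gemin7* and *Gemin8* lie between 1.35 and 1.75 in both genotypes, and *Gemin5* lies at −0.89 in +/+ and −0.28 in Hnrnpr-/- motoneurons.

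The members' differences between compartments followed the length of their coding sequence, a relation looked for after the values were seen. Over the 9 members the Spearman correlation of coding length with the log2 fold change was −0.95 in +/+ and −0.92 in Hnrnpr-/- motoneurons, where the points share the same libraries. Over the 14665 protein-coding genes tested that matched a GENCODE symbol, 95.4% of 15378, it was −0.31 in both. The median log2 fold change in +/+ motoneurons fell from 0.86 over 1698 genes of up to 600 coding bases, the class of *Gemin6* and *Gemin7*, to 0.45 over 2731 genes of up to 1000 bases, the class of *Smn1*, *Gemin2* and *Gemin8*. It was −0.02 in the class of *Strap*, up to 2000 bases, −0.39 in that of *Ddx20*, −0.67 in that of *Gemin4* and −0.79 over the 1116 genes longer than 4000 bases, the class of *Gemin5*. In +/+ motoneurons 56.7% of genes of up to 600 bases and 42.4% of the next class were called higher in axons. Of genes longer than 4000 bases 13.4% were called higher and 50.5% lower. The part of coding length in the members' differences was not tested.

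The log2 fold change was above the median of the own length class for 8 of the 9 members in +/+ and all 9 in Hnrnpr-/- motoneurons. A class median by definition has as many genes above it as below. Some margins were small, such as 0.14 for *Strap* and 0.23 for *Smn1* in +/+ motoneurons. *Gemin4* in +/+ and *Gemin5* in Hnrnpr-/- motoneurons were above their class with values below 0, −0.10 and −0.28. *Gemin8* was farthest from its class, by 1.18 in +/+ and 1.37 in Hnrnpr-/- motoneurons on the log2 scale. *Gemin5* was 0.48 above its class in Hnrnpr-/- and at −0.10 in +/+ motoneurons.

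**Figure D4:**
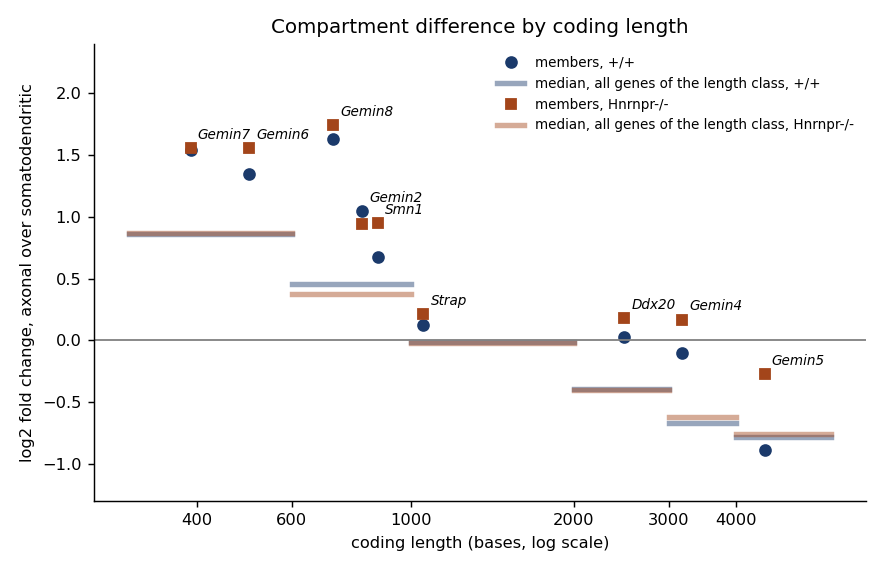
Log2 fold change of axonal over somatodendritic libraries against coding length (bases, log axis) for the 9 members in both genotypes, with horizontal lines for the median of all protein-coding genes in each length class. The members fall from 1.54 for *Gemin7* to −0.89 for *Gemin5* in +/+ motoneurons, and the class medians fall from 0.86 to −0.79.

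Some markers of other cells moved with the compartment as well. The 4 genes of pericytes or smooth muscle summed to 1834 to 8857 CPM in Hnrnpr-/- axonal against 38.9 to 232 CPM in Hnrnpr-/- somatodendritic libraries, beside the +/+ values above, and none of them was at 0 in any group. The 6 genes of astrocytes or radial glia summed to 957 to 1336 CPM in +/+ somatodendritic and 1933 to 4693 CPM in +/+ axonal libraries, with none at 0, while the Hnrnpr-/- ranges overlapped, at 892 to 1988 and 1891 to 3731 CPM. The +/+ compartments did not overlap for *Fabp7*, at 336 to 487 and 973 to 2771 CPM. Nor did they for *Sox2*, at 8.40 to 28.6 and 42.5 to 109 CPM. They overlapped for *Gfap*, *Aqp4*, *Slc1a3* and *Aldh1l1*. The 5 general neuronal genes had lower sums in axons, from 2902 to 3674 CPM to 230 to 1297 CPM in +/+ and from 2324 to 3516 CPM to 177 to 1676 CPM in Hnrnpr-/- libraries. Summed levels of 5 genes of oligodendroglia or Schwann cells, 76.6 to 481 and 43.5 to 360 CPM, of 5 genes of fibroblasts or meninges, 51.6 to 385 and 79.6 to 1547 CPM, and of 4 microglial genes, 5.58 to 27.5 and 3.05 to 44.3 CPM, overlapped between the +/+ compartments, as the same lists did in Hnrnpr-/- libraries. The part of other cells in the members' differences was not tested.

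The genotypes were compared within each compartment, in fits of its 8 libraries. In axons 0 of the 9 members were called, where 1 of 18957 genes was, *Hnrnpr* itself (0.00528%), and at an unadjusted p under 0.05 there were 0 members, against 0.723% of all genes. In the somatodendritic compartment 0 members were called, against 0.00557% of 17961 genes, and 0 had an unadjusted p under 0.05, against 2.62%. Without Hnrnpr-/- somatodendritic replicate 1, 2291 of 18263 genes had an unadjusted p under 0.05 in edgeR. Among them was 1 member, *Gemin5* (unadjusted p = 0.0190), and 0 members were called. DESeq2 and limma voom also called 0 members in either compartment. The median member log2 fold change came to 0.04 for axons, where that of all genes was 0.02, and to −0.05 for the somatodendritic compartment, where it was 0.01. With libraries left out in turn, the member median ranged from −0.10 to 0.16 and from −0.13 to 0.01.

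The libraries limit what these tests could show, more so in axons. *Smn1* lay at 14.8, 18.3, 24.0 and 13.7 CPM in +/+ and 10.5, 17.1, 23.5 and 17.1 CPM in Hnrnpr-/- axons, with overlapping ranges, and its log2 fold change was −0.05 with a 95% confidence interval from −0.76 to 0.65. In the somatodendritic compartment it was −0.31 (−0.81 to 0.18). *Gemin2* had −0.05 (−0.72 to 0.63) in axons and 0.08 (−0.33 to 0.48) in the somatodendritic compartment. *Ddx20* had 0.10 (−0.40 to 0.61) and −0.03 (−0.30 to 0.25).

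*Gemin6*, *Gemin7* and *Gemin8*, the 3 members with the largest compartment difference, had genotype values near 0 in axons, at 0.01 (−0.81 to 0.83), −0.06 (−0.59 to 0.47) and 0.04 (−0.62 to 0.71). In the somatodendritic compartment they had −0.19 (−0.57 to 0.19), −0.07 (−0.36 to 0.22) and −0.05 (−0.67 to 0.56). *Strap*, the most abundant member by CPM, had the narrowest interval in both compartments, with 0.12 (−0.28 to 0.53) in axons and 0.05 (−0.20 to 0.30) in the somatodendritic compartment. The intervals of every member in both compartments included 0.

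**Figure D5:**
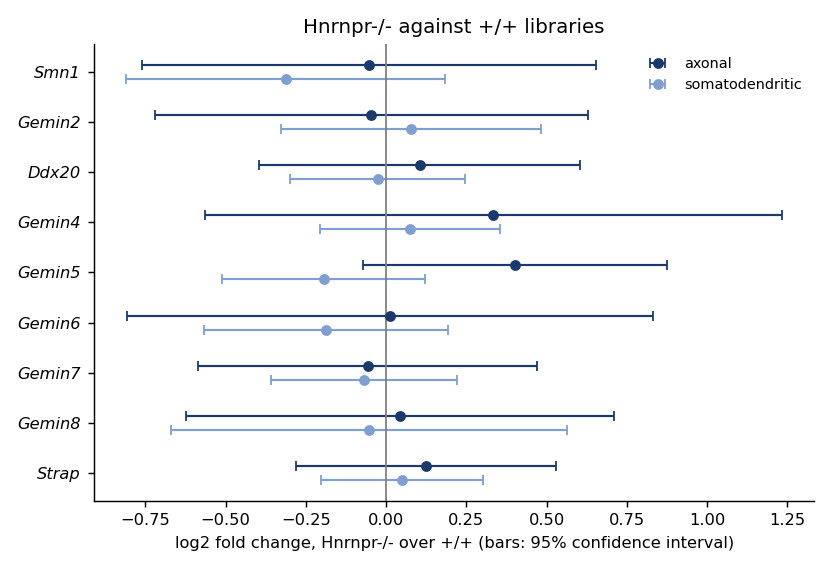
Log2 fold change of Hnrnpr-/- over +/+ libraries for each member in the axonal and the somatodendritic compartment, with bars for the 95% confidence interval. Every bar crosses 0, and the widest, for *Gemin4* in axons, runs from −0.57 to 1.23.

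*Gemin4* and *Gemin5* had the largest genotype values in axons, and 0.07 (−0.21 to 0.35) and −0.19 (−0.51 to 0.12) in the somatodendritic compartment. *Gemin4* lay at 29.6, 37.3, 46.6 and 33.7 CPM in Hnrnpr-/- axons and overlapped with +/+ axons, with a log2 fold change of 0.33 (−0.57 to 1.23) that became 0.04 without +/+ axonal replicate 2. *Gemin5* lay at 35.0 to 40.3 CPM in Hnrnpr-/- and 20.2 to 35.6 CPM in +/+ axons, where the highest +/+ library was above 2 of the Hnrnpr-/- ones, and its log2 fold change was 0.40 (−0.07 to 0.88, unadjusted p = 0.0873, adjusted p = 1.00). Without +/+ axonal replicate 2 its log2 fold change was 0.27 and the unadjusted p 0.174. Over the 20 alternative fits of this comparison the unadjusted p ranged from 0.0343 to 0.175, and was under 0.05 in 2.

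The same question was asked of each member alone by an exact two-sided permutation test of the mean log2(CPM + 1), 4 libraries against 4, in 18 tests. The lowest p was 0.0857, for *Gemin5* in axons, where 0.0286 is the smallest p that the 70 splits allow, and the adjusted p was 0.914 for it and for each of the other tests. *Smn1* had an exact permutation p of 0.800 for axons and 0.257 for the somatodendritic compartment.

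Whether the genotype value differed between the compartments was tested in the fit of all 16 libraries. At an adjusted p under 0.05, 0 members and 0 of 19964 genes (0.0%) were called in edgeR, and 1 member, *Gemin5*, had an unadjusted p under 0.05, against 1.33% of all genes. Its genotype value was 0.61 higher in axons on the log2 scale (SE 0.25, unadjusted p = 0.0250, adjusted p = 1.00). The unadjusted p was under 0.05 in 25 of the 29 alternative fits, and ranged from 0.00856 to 0.0665. The difference was 0.48 without +/+ axonal replicate 2. For *Smn1* it was 0.27 (95% confidence interval −0.56 to 1.10) and for *Gemin7* 0.02 (−0.54 to 0.58). The alternative fits of *Gemin5* reuse the same libraries. The common dispersion, the spread of counts between libraries, was 0.275 in the axonal, 0.0499 in the somatodendritic and 0.178 in the shared fit. For the genotypes in axons, the shared fit gave 775 of 19964 genes an unadjusted p under 0.05. The fit of 8 libraries gave 137 of 18957.

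The proteins that the SMN complex loads, and those before and after it, were looked at by lists. The 10 genes of Sm and U7-specific Lsm proteins were all called between compartments in both genotypes, 8 higher and 2 lower in axons, with a median log2 fold change of 1.59 in +/+ and 1.61 in Hnrnpr-/- motoneurons. Of all genes tested 57.5% were called in +/+ motoneurons, and 54.2% in Hnrnpr-/- motoneurons, and 30.1% and 27.5% were called higher, with medians of 0.07 and −0.00. The largest were *Snrpe* at 2.55 (adjusted p = 0.000991), *Snrpf* at 2.05 and *Snrpb* at 1.94 in +/+ motoneurons, all of them core Sm proteins. *Lsm11* of the U7 particle was lower, at −2.28 (adjusted p = 0.000674), and so was *Snrpn*, the neuronal relative of *Snrpb*, at −1.25 (adjusted p = 0.0208). *Snrpe* spread widely, at 125 ± 127 CPM (n = 4) in +/+ axons. Compared between genotypes, 0 of the 10 were called in either compartment. Coding length was not taken into account for this list. Among all genes of up to 600 coding bases, 56.7% were called higher in axons in +/+ and 54.7% in Hnrnpr-/- motoneurons.

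The next list held genes of the methylosome, which methylates Sm proteins before they reach SMN, and of Sm chaperones. Of its 6 genes 0 were called between compartments in +/+ motoneurons, where 57.5% of all genes were. In Hnrnpr-/- motoneurons 2 were called higher in axons, against 27.5% of all genes. The medians were 0.15 and 0.24, and those of all genes tested 0.07 and −0.00. In the list of small nuclear RNA export, cap and import, 3 of 8 genes were called in +/+ motoneurons, where 57.5% of all genes were, and 2 of 8 in Hnrnpr-/- motoneurons, where 54.2% were. In +/+ motoneurons they were *Ncbp2* of the cap-binding complex at 0.45, and lower *Coil*, the scaffold of Cajal bodies, at −0.79 and *Tgs1*, which hypermethylates the cap, at −0.40. In Hnrnpr-/- motoneurons *Ncbp2* (0.39, adjusted p = 0.0639) and *Coil* (−0.38, adjusted p = 0.216) did not pass, and *Tgs1* did (−0.32, adjusted p = 0.0231). The other gene called there was *Xpo1*, the exportin of small nuclear RNAs, named after its values were seen, at −0.86 (adjusted p = 0.0451), against −0.39 (adjusted p = 0.337) in +/+ motoneurons. In the list of SMN-linked and modifier genes, 6 of 10 were called in +/+ and 5 of 10 in Hnrnpr-/- motoneurons, shares near the 57.5% and 54.2% of all genes. Of those called in +/+ motoneurons *Pls3*, an actin-bundling protein, was at 2.05 (adjusted p = 0.000246) and *Chp1* at 0.49, while *Usp9x* was at −1.82 and *Uba1* at −0.76. Between genotypes *Hnrnpr* was called in both compartments, and the other genes of these 3 lists were not.

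By its pattern over the 16 libraries, *Smn1* was most like *Abt1*, *Nudt21*, *Gm7488*, *Srm* and *Naa10* among 12994 genes with a mean of at least 5 CPM. The root mean square difference in log2(CPM + 1), centred per gene, was 0.155 for *Abt1* and 0.188 for *Naa10*, against a median of 0.719 over all these genes. *Abt1* had means of 18.4 and 16.1 CPM in +/+ and Hnrnpr-/- somatodendritic and of 29.8 and 31.1 CPM in +/+ and Hnrnpr-/- axonal libraries. Of the other members *Gemin2* was closest to *Smn1*, at 0.251 and rank 168, and *Gemin5* was farthest, at 0.783 and rank 7223.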

How the data were processed

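RNA-seq of 16 libraries from compartmentalized motoneurons was analysed, 4 per group, with groups and replicate numbers from the sample titles. Per the study's methods, reads were trimmed with Cutadapt, mapped with STAR 2.7.2b to GRCm39 and counted on RefSeq exons with featureCounts 1.6.4 in the reverse strand setting. Reads with several alignments or genes were split. The deposited values are these expected counts, fractional and without normalization, made by the authors. The members and lists were chosen with earlier results of these data known.

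Counts were rounded, filtered by filterByExpr and TMM-scaled, and fitted with edgeR 4.0.16 (quasi-likelihood, R 4.3.3). Compartment contrasts and the difference between compartments used all 16 libraries, and genotype contrasts the 8 of 1 compartment, in two-sided tests at 0.05 after Benjamini-Hochberg adjustment across the genes tested. Scripts were tested on simulated data. The replicates are called biological in the study, and no 2 libraries were identical. CPM and RPKM used TMM-scaled totals. Counts cover 22024923 to 34864151 reads per library, and intervals are those of the model.

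Coding sequences of GENCODE vM39 transcripts were compared with GRCm39 by BLAST 2.17.0 at 85% identity. Named genes were the members, *Hnrnpr*, up to 3 list genes per direction, the 5 nearest *Smn1* and overlapping genes, and 1 list gene is not reported here. Genes of copies were named after their values were seen. Alternatives were RLE factors, library totals, no filter, at least 10 counts per library, fractional counts, DESeq2 1.42.0 with and without shrinkage, limma 3.58.1 voom, other libraries in the fit, replicate blocks, protein-coding genes, each library left out, a pseudocount of 0.5 and levels without length. Near copies added and GENCODE lengths were added after seeing the data.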

Additional observations from a re-analysis of the deposited data

Results flagged for a closer look

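Among the 36 sets of 4 libraries, 9 genes in 4 groups, 3 had 1 library far from the others, and chance alone gives about 1 such set in 20. *Gemin2* was at 19.3 CPM in Hnrnpr-/- axonal replicate 3, against 11.5 to 12.2 CPM in the other 3. *Strap* was at 243 CPM in +/+ axonal replicate 3, against 204 to 208 CPM. *Gemin4* was at 34.8 CPM in +/+ somatodendritic replicate 4, against 30.1 to 30.5 CPM.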

How the results depend on the processing

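The number of members called stayed at 5 for the compartment difference in Hnrnpr-/- motoneurons and at 0 for the genotype in each compartment and for the difference between compartments, under every alternative run. In +/+ motoneurons it was 5 or 6, and *Smn1* was the member lost. *Smn1* lost its call without a filter (adjusted p = 0.0682), with limma voom (0.0601), in the fit of the 8 +/+ libraries (0.0504), with the replicate block (0.0520) and with the replicate block within genotype (0.0767). It was also lost without any of 9 single libraries: +/+ somatodendritic replicates 1, 2 and 3, +/+ axonal replicates 2 and 3, Hnrnpr-/- somatodendritic replicates 3 and 4, and Hnrnpr-/- axonal replicates 2 and 4. The median member log2 fold change in +/+ motoneurons ranged from 0.54 to 0.92 when libraries were left out in turn. *Strap* made up 28.5% of the members' summed RPKM in +/+ axons, 44.6% of their summed CPM, and 35.3% with GENCODE lengths. Replicate numbers were not taken as pairs, since the rule set was a correlation of deviations over 0.1 in every same-number pair. Of 24 such pairs 15 were over 0.1 (from −0.11 to 0.79), and the main tests were unpaired. Between the compartments of 1 genotype 7 of 8 such pairs were over 0.1 (from 0.08 to 0.58), and 13 of 16 libraries were closest to one of their own number. The study's general statement that conditions came from the same batch of cells does not tie the numbers to batches. With the replicate block 0 members were called between genotypes in axons, 0 in the somatodendritic compartment and 5 between compartments in either genotype. Depth was not limiting for detection of the members, whereas the spread between 4 axonal libraries left genotype intervals up to 1.80 wide on the log2 scale.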

Other observations

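The share of reads on the pseudogene *Gm5455* among those on *Gemin8* and *Gm5455* together was 13.4 to 20.8% in Hnrnpr-/- and 8.46 to 10.6% in +/+ somatodendritic libraries. The ranges did not overlap, and the means differed by 7.10 percentage points. The exact two-sided permutation test gave p = 0.0286, the smallest it can give with 4 against 4, and 0.171 after adjustment over 6 such shares. The pair was noticed in the data first. *Gm5455* had only 4.5 to 20.5 counts in these libraries, and its own genotype difference there had an unadjusted p of 0.0416 in edgeR (adjusted p = 0.999). In axons the shares were 11.7 to 15.7% in Hnrnpr-/- and 12.1 to 20.7% in +/+ libraries.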
